A study of Mus musculus with 11 samples.

Results

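The genes described here are 10 genes of the antioxidant response that the transcription factor NRF2 drives, out of 36788 gene identifiers measured in mouse liver. They were chosen by name, with earlier results of these data known. They are the factor itself (Nfe2l2), its repressor (Keap1) and 8 genes of its textbook program. These 8 are Nqo1, Gclc, Gclm, Txnrd1, Srxn1, Slc7a11, G6pdx and Cat. RNA-seq was performed on livers of wild-type C57BL/6 females older than 12 weeks, as the labels give strain and age. Every animal in both groups had been ovariectomized (OVX) and kept on a high-fat diet (HFD), so intact females and females on regular diet are outside the comparison. In the FSH group (n = 5) the mice received daily injections of follicle-stimulating hormone, the pituitary hormone that acts on the ovary, and in the control group (n = 6) they received saline. The comparison asks what FSH changes in the liver when the ovaries are absent.

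NRF2 is a leucine zipper factor that is held in the cytoplasm and sent to degradation by KEAP1. When reactive cysteines of KEAP1 are modified by electrophiles or oxidants, NRF2 accumulates, enters the nucleus and binds, together with small MAF proteins, to antioxidant response elements near genes for glutathione synthesis, thioredoxin reduction, NADPH supply and detoxication. In the liver this program is known for defence against drugs and oxidative stress, and much of its control takes place at the level of NRF2 protein, which mRNA counts do not measure.

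The core of the antioxidant response element, TGACNNNGC, was searched on both strands of the 250 bases before each transcription start, because these are the letters through which the factor is known to bind. RefSeq windows of GRCm38.p6 were matched for 9 of the 10 genes, with 11 windows in all, and Gclc had none. Of the 9 genes, 4 held a match, against 11.5% of 27025 genes and 10.2% of 32851 windows searched in the same way. The matches are shown 5′ to 3′ on the strand of the gene with 10 flanking bases on each side, and the capitals mark the 9 matching letters.
Nfe2l2, chr2:75704885-75704913, minus strand: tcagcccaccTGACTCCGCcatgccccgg
Gclm, chr3:122245413-122245441, plus strand: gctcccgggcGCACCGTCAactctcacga
Txnrd1, chr10:82859104-82859132, plus strand: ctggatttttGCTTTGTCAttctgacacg
G6pdx, chrX:74428919-74428947, minus strand: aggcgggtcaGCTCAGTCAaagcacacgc
The Nfe2l2 match reads as written above and the other 3 read as the reverse complement of these letters. It began 240 bases before the start in Nfe2l2, 134 in Gclm, 92 in the second of 3 Txnrd1 windows and 57 in G6pdx, counted from the RefSeq starts. For Txnrd1 and G6pdx these starts lie inside the GENCODE gene spans given below, so the matches do as well. Among these 4 genes, G6pdx passed the test described below and Nfe2l2, Gclm and Txnrd1 did not, and Nqo1, which also passed, held no match in this window. A match is a description of letters and not of binding, and elements that lie farther upstream were not searched.

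CPM values, the reads of a gene scaled to a library total of 1000000, were compared on the log2(CPM + 0.5) scale with limma. P-values were adjusted by Benjamini-Hochberg over 12733 genes, those that averaged 0.5 CPM or more. Between 10801891 and 19909327 reads lay behind each library. In FSH livers 10.6% of the tested genes passed an adjusted p of 0.05, 6.19% with higher and 4.41% with lower values, and 1.83% also passed an absolute log2 fold change of 1 (0.887% higher and 0.942% lower). Hepatocyte markers made up 114810 to 135695 CPM in FSH livers and 110031 to 141120 CPM in saline livers over 10 genes with none at 0, and 2 of the 10, Fgb and Hnf4a, fell by 0.38 and 0.44 on the log2 scale. A single marker also fell among the 10 of Kupffer cells (Cd68, summed level 160.0 to 422.7 against 276.2 to 495.5 CPM), of endothelial cells (Lyve1, 222.7 to 328.1 against 254.1 to 303.0 CPM) and of stellate cells (Ecm1, 456.0 to 555.7 against 540.1 to 657.7 CPM), while Krt7 rose among 8 cholangiocyte markers (60.6 to 80.1 against 47.8 to 67.6 CPM) and Ighm among 10 lymphocyte and neutrophil markers, of which Ly6g was at 0 (18.3 to 27.8 against 13.4 to 27.7 CPM). Of 8 periportal markers Cyp2f2 fell by 0.94 on the log2 scale and Gls2 and Ass1 rose by 0.74 and 0.59 (7215 to 9064 against 5929 to 12181 CPM), and of 9 pericentral markers Lect2 rose by 0.40 (8289 to 11504 against 8579 to 12367 CPM). Their part in the results below was not tested. In whole liver, fewer cells of a type and less RNA per cell cannot be told apart.

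Of the 10 genes, 9 could be tested and 3 passed: Nqo1 and G6pdx rose in FSH livers and Gclc fell. For 9 tested genes this count stands beside the background of 10.6%, and the genes were chosen with earlier results of these data known. The changes went in opposite directions: Nqo1 was 1.74-fold and G6pdx 2.14-fold higher with FSH, and Gclc was 2.00-fold lower. The other 6 tested genes, among them Nfe2l2 and Keap1, did not pass, with log2 fold changes between -0.07 and 0.24. Past both thresholds were Gclc and G6pdx, and the 2 groups did not overlap in Nqo1 and Gclc, against 6.67% of all tested genes.

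**Figure D1:**
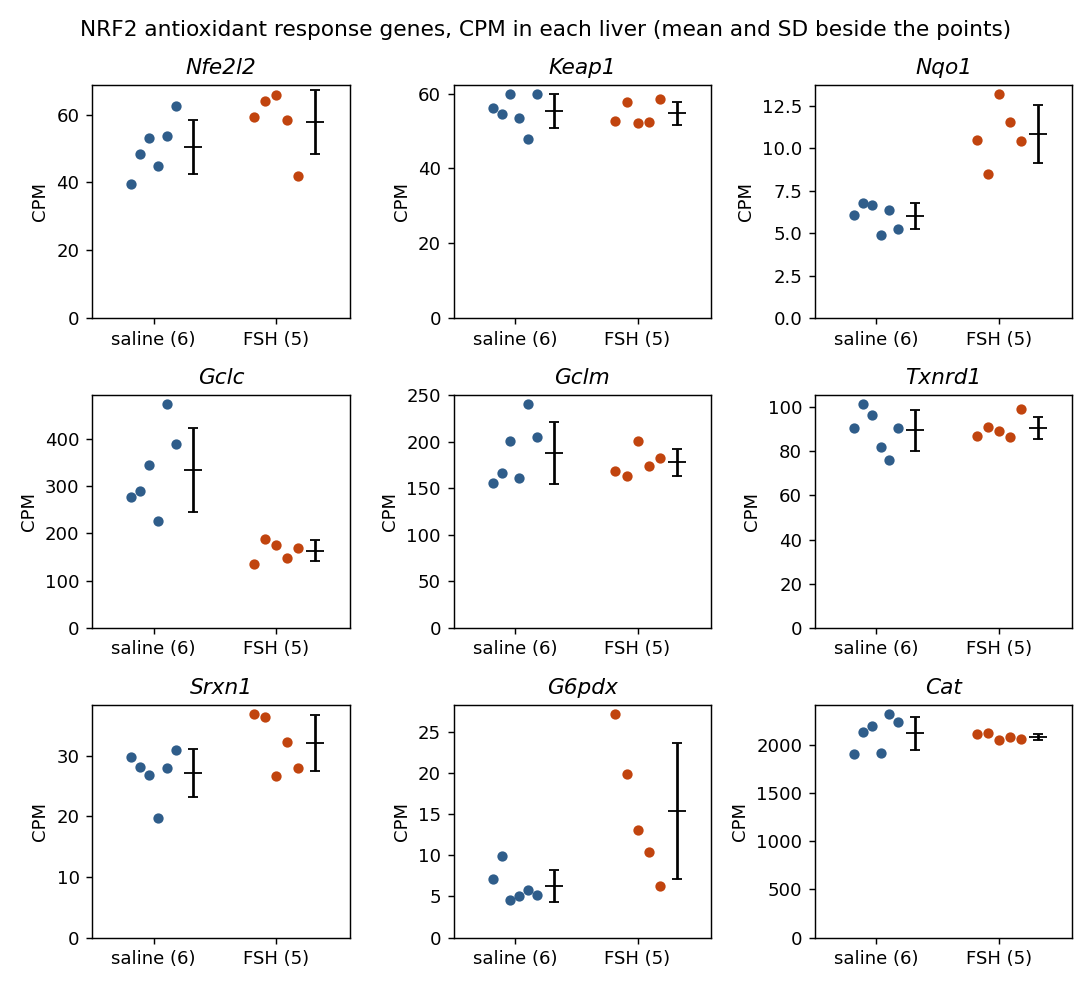
CPM of 9 genes (y axis, starting at 0) in each of the 6 saline and 5 FSH livers (points), with the group mean and SD as a bar beside them. Nqo1 lies higher and Gclc lower in every FSH liver than in any saline liver, and in G6pdx the FSH livers spread from 6.22 to 27.1 CPM.

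NQO1 is a flavoprotein that reduces quinones with NADPH or NADH, and its transcript is the one most often read as a reporter of NRF2 activity. Nqo1 (chr8:107388225-107403206, minus strand, GRCm38) was measured at 10.5, 8.48, 13.2, 11.6 and 10.4 CPM in FSH livers 1, 2, 3, 4 and 6. In saline livers it ranged from 4.87 to 6.76 CPM with a median of 6.22. The lowest FSH liver therefore lay above the highest saline liver. The means were 10.8 ± 1.73 CPM (SD, n = 5) and 5.99 ± 0.779 CPM (SD, n = 6), a log2 difference of 0.80 (SE 0.13, 95% interval 0.53 to 1.07, limma adjusted p = 0.0012). These values rest on 64 to 233 reads per library, which makes Nqo1 one of the less deeply counted of the 10 genes. It passed in all 22 alternative analyses, with log2 fold changes from 0.73 to 0.88.

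Glutathione is made in successive steps, and the first, which limits the rate, is carried out by glutamate-cysteine ligase. The ligase consists of a catalytic subunit, GCLC, and a modifier subunit, GCLM, that raises its affinity for glutamate and eases feedback inhibition. Both genes are standard NRF2 targets, and SLC7A11 is the cystine transporter that can supply their substrate in many cell types.

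Gclc (chr9:77754535-77794485, plus strand) was measured at 134.2, 188.7, 175.1, 146.7 and 169.8 CPM in FSH livers 1, 2, 3, 4 and 6. In saline livers it ranged from 225.8 to 474.1 CPM with a median of 317.8. Every FSH liver was below every saline liver, and the saline livers were the more variable, with a coefficient of variation of 26.7% against 13.6%. Mean levels were 162.9 ± 22.1 CPM with FSH and 333.5 ± 89.0 CPM with saline, a log2 difference of -1.0 (SE 0.16, 95% interval -1.34 to -0.66, limma adjusted p = 0.0013). Gclc passed the adjusted p in all 22 alternatives. Its fold lay at the second threshold, which it passed in 15 of them. The 7 others include a pseudocount of 1 CPM and leaving out FSH 1 or 4 or saline 3, 5 or 6 (as near to 0 as -0.89).

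The modifier subunit did not follow. Gclm (chr3:122245557-122270732, plus strand) was measured at 169.1, 163.7, 200.8, 173.5 and 182.4 CPM in FSH livers 1, 2, 3, 4 and 6, and in saline livers from 155.6 to 241.0 CPM with a median of 183.2. The FSH livers lay entirely inside the saline range. The log2 difference was -0.07, with a 95% interval of -0.31 to 0.17 (limma adjusted p = 0.773). Within Gclm the annotation also places the opposite-strand transcript Gm17494 and the pseudogene Gm6061, which averaged 1.09 and 0.234 CPM over all livers.

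Because both subunits were counted in the same liver, their ratio is given as well. It is one of 5 that were computed, all chosen after the values had been seen, so it restates the values above and has no test. There were 0.794, 1.15, 0.872, 0.845 and 0.931 Gclc reads per Gclm read in FSH livers 1, 2, 3, 4 and 6. In saline livers the ratio ranged from 1.4 to 1.97 with a median of 1.76. Every FSH liver was below every saline liver. The mean ratio was 0.919 ± 0.140 with FSH and 1.75 ± 0.195 with saline, a log2 difference of -0.94. The ratio is of reads and not per length, so it does not say which subunit had the higher level.

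**Figure D2:**
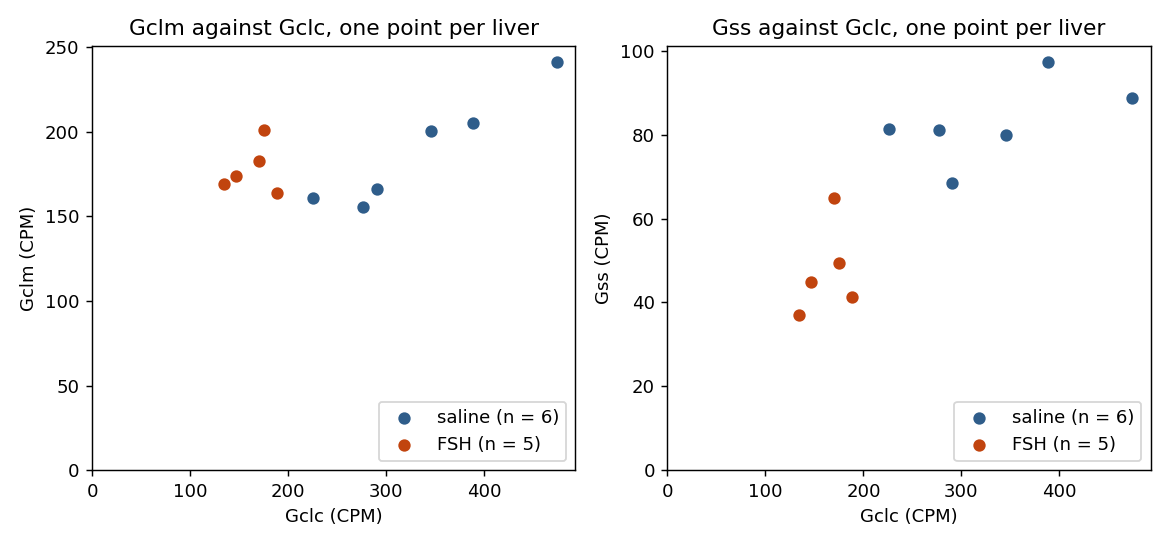
Gclm (left, CPM) and Gss (right, CPM) against Gclc (x axis, CPM), 1 point per liver, with 5 FSH and 6 saline livers. The FSH livers lie to the left of all saline livers along Gclc, within the saline range of Gclm and below it for Gss.

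Slc7a11 (chr3:49892526-50443614, minus strand) was at the edge of detection. It had 1 read in FSH liver 1 and 2 reads in saline liver 3, and 0 reads in the other 9 livers. A count of 0 allows up to 3 reads, that is 0.151 CPM in the deepest and 0.278 CPM in the shallowest library, which covers counting error only. Both groups lie under this limit, so no fold is given and a difference was not detectable at this depth.

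G6PDX catalyses the first, NADPH-producing step of the pentose phosphate pathway and is also a target of lipogenic regulators in liver. G6pdx (chrX:74409483-74429194, minus strand) was measured at 27.1, 19.8, 13.1, 10.3 and 6.22 CPM in FSH livers 1, 2, 3, 4 and 6. In saline livers it ranged from 4.55 to 9.89 CPM with a median of 5.50. Thus 4 of 5 FSH livers were above every saline liver and FSH 6 was inside the saline range. The means were 15.3 ± 8.25 CPM and 6.28 ± 1.98 CPM, a log2 difference of 1.10 (SE 0.30, 95% interval 0.47 to 1.73, limma adjusted p = 0.0282, two-sided exact permutation p = 0.0173). The coefficient of variation was 53.9% in FSH livers and 31.6% in saline livers, the widest spread among the 9 tested genes in each group.

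The G6pdx call lay near the threshold. It was lost without FSH 1, 2 or 3 (adjusted p = 0.0764, 0.0693 and 0.0574, with log2 differences of 0.86, 0.97 and 1.11) and without saline 3, 4 or 6 (0.0610, 0.0530 and 0.0510, with 1.02, 1.05 and 1.06). It was also lost with no filter on low genes (0.0599). Without FSH 6 the adjusted p was 0.00338 and the log2 difference 1.37, and the direction was the same in all 22 alternatives. The gene overlaps Ikbkg, which lies on the opposite strand, and the use of strand in counting is not given in the sources used here, so reads of the overlap cannot be told apart. Ikbkg, a regulatory subunit of the IKK complex, fell in FSH livers, 29.2 against 35.7 CPM (log2 difference -0.29, limma adjusted p = 0.0427). The retrogene G6pd2, which resembles G6pdx, had 0 reads in all 11 libraries.

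The regulators themselves did not pass the test. Nfe2l2 (chr2:75675513-75704641, minus strand) was measured at 59.4, 64.1, 65.8, 58.5 and 41.9 CPM in FSH livers 1, 2, 3, 4 and 6, and from 39.6 to 62.6 CPM with a median of 50.8 in saline livers. The log2 difference was 0.20, with an interval of -0.08 to 0.48 (limma adjusted p = 0.390). FSH 6 was again the lowest FSH liver, and the groups overlapped. Without FSH 6 the log2 difference was 0.31 (limma adjusted p = 0.0975), and without saline 1 it was 0.13 (limma adjusted p = 0.579). Keap1 (chr9:21229730-21239361, minus strand) was measured at 52.7, 57.8, 52.2, 52.5 and 58.5 CPM with FSH and from 47.8 to 59.9 CPM with a median of 55.3 with saline. Its log2 difference was -0.01, with the interval between -0.19 and 0.16 (limma adjusted p = 0.947).

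Txnrd1, Srxn1 and Cat did not pass the test. TXNRD1, the cytosolic reductase that returns electrons from NADPH to thioredoxin, had a Txnrd1 mRNA (chr10:82833951-82897712, plus strand) of 86.7 to 99.0 CPM in FSH livers and 76.3 to 101.6 CPM in saline livers. Its log2 difference was 0.02, with an interval of -0.16 to 0.20 (limma adjusted p = 0.909). The FSH livers lay inside the saline range, and the sign of this small difference turned with the scaling used. SRXN1 reduces over-oxidised peroxiredoxins. Srxn1 (chr2:152105516-152111376, plus strand) was measured at 37.0, 36.4, 26.7, 32.3 and 28.0 CPM in FSH livers 1, 2, 3, 4 and 6 and from 19.7 to 30.9 CPM with a median of 28.1 in saline livers. With 3 FSH livers above every saline liver and 2 inside their range, the log2 difference was 0.24 (interval -0.03 to 0.50, limma adjusted p = 0.259). Saline liver 4 held the lowest value, and without it the difference was 0.15.

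Cat (chr2:103453849-103485160, minus strand) encodes catalase, the peroxisomal enzyme that splits hydrogen peroxide. It was measured at 2105, 2115, 2049, 2081 and 2055 CPM in FSH livers 1, 2, 3, 4 and 6 and from 1900 to 2320 CPM with a median of 2159 in saline livers. The FSH livers differed little among themselves, with a coefficient of variation of 1.4% against 8.13% in saline livers, a difference in spread that was not tested. The log2 difference was -0.02, with an interval of -0.20 to 0.16 (limma adjusted p = 0.920), and its sign turned under quantile normalization.

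**Figure D3:**
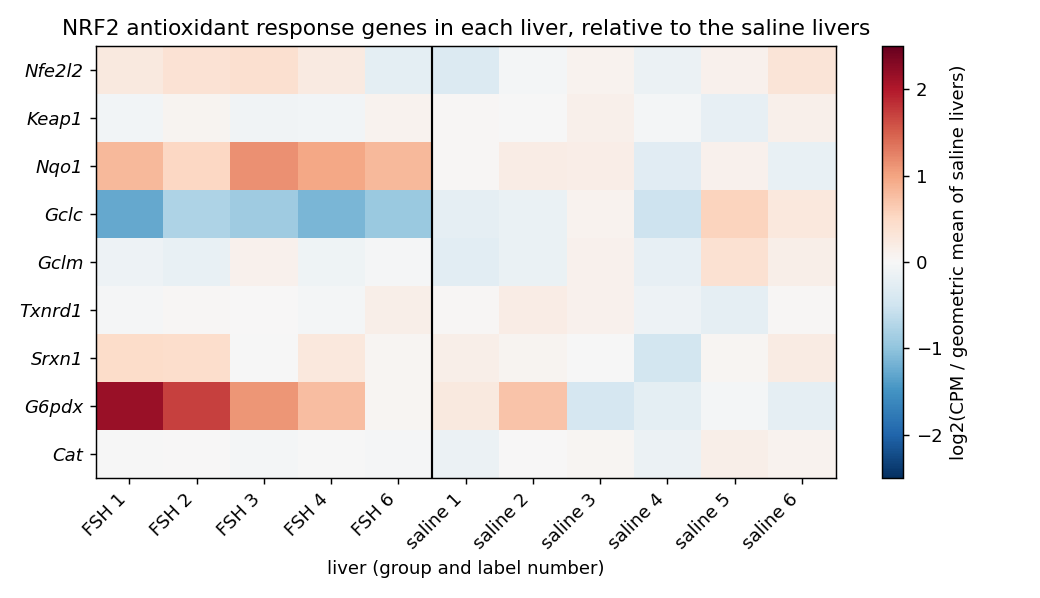
Heat map of 9 antioxidant response genes (rows) in the 5 FSH and 6 saline livers (columns), as log2 of CPM over the geometric mean of the saline livers (colour). The Nqo1 row is red and the Gclc row blue in all 5 FSH livers, and G6pdx is red in 4 of them, while Keap1, Gclm, Txnrd1 and Cat stay pale.

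Per kilobase of exon, the 10 genes covered a wide range of levels. In saline livers Cat was highest with 809.3 CPM per kb, followed by Gclc with 88.6, Gclm with 29.9, Nfe2l2 with 13.3, Txnrd1 with 12.6, Keap1 with 11.8, Srxn1 with 9.65, Nqo1 with 3.86 and G6pdx with 2.04 CPM per kb, and Slc7a11 was under the limit of detection. Nfe2l2 and Txnrd1, Txnrd1 and Keap1, Keap1 and Srxn1, and Nqo1 and G6pdx were neighbours in this order whose ranges overlapped across the saline livers. With FSH, Gclc came to 43.3, Gclm to 28.3, Nqo1 to 6.98 and G6pdx to 4.97 CPM per kb, so the order of these 4 means stayed as it was. The ranges of Nqo1 and G6pdx overlapped across the FSH livers too. G6pdx was above Nqo1 in FSH 1 (8.81 against 6.76) and FSH 2 (6.44 against 5.46), and below it in FSH 3, 4 and 6.

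Other genes of the pathway were read from 6 lists of textbook function. Over the 117 genes tested in them, 21 rose and 6 fell, which is 23.1% against the background of 10.6%. The median log2 fold change over the lists was 0.09, and it was 0.02 over all tested genes. The lists differed among themselves, from 5.88% to 40.0% called, and the lists were drawn up with earlier results of these data known.

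Among genes that control NRF2, namely the other partners, ligases and competitors of the factor, 1 of 17 tested rose and 0 fell (5.88%, median -0.06). The gene called was Brca1, the DNA repair protein that can bind NRF2, with 3.14 ± 0.620 CPM in FSH and 1.69 ± 0.675 CPM in saline livers (log2 difference 0.78, limma adjusted p = 0.0335), and the groups overlapped. The Brca1 call was lost in 9 of 22 alternatives, among them with no filter on low genes (adjusted p = 0.0757) and without FSH 1, 3, 4 or 6 or saline 3, 4 or 6 (0.0527 to 0.0819).

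In glutathione synthesis and use, 4 genes fell and 1 rose of 18 tested (27.8%, median -0.09), beside the fall of Gclc. Gss, the synthetase of the second step, was measured at 37.0, 41.3, 49.5, 44.9 and 65.0 CPM in FSH livers 1, 2, 3, 4 and 6 and from 68.5 to 97.3 CPM with a median of 81.3 in saline livers. It was thus lower in every FSH liver (log2 difference -0.81, SE 0.13, limma adjusted p = 0.00126). Chac1 and Ggct, enzymes of glutathione breakdown and of the gamma-glutamyl cycle, fell as well. Chac1 was 2.92 ± 1.33 CPM with FSH and 6.83 ± 1.90 CPM with saline (-1.14, limma adjusted p = 0.00543), and it was the 1 gene of this list past both thresholds. Ggct was 11.5 ± 2.00 against 18 ± 2.71 CPM (-0.63, limma adjusted p = 0.00704), with no overlap of the groups. The genes that fell thus include enzymes of synthesis as well as of breakdown.

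The remaining calls of the glutathione list were smaller. Gpx3, the secreted glutathione peroxidase, was 4.05 ± 0.724 against 6.25 ± 1.49 CPM (-0.55, limma adjusted p = 0.0433), and Glrx3, an iron-sulphur cluster glutaredoxin, 92.4 ± 9.90 against 72.8 ± 6.39 CPM (0.34, limma adjusted p = 0.0295). The groups overlapped in both genes. Gss, Chac1 and Ggct passed in all 22 alternatives. The call of Gpx3 was lost in 11 of them, among these with no filter or voom and without FSH 1, 2, 3 or 6 or saline 1, 3, 4 or 5 (adjusted p up to 0.108), and that of Glrx3 in 7, among these without FSH 1, 2, 3 or 4 or saline 3 or 5 (adjusted p up to 0.0890).

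Of 19 thioredoxin and peroxiredoxin genes, 3 rose and 0 fell (15.8%, median 0.12). Txnrd3, a reductase of the same family as Txnrd1, rose from 4.42 ± 0.656 to 8.51 ± 1.45 CPM (log2 difference 0.87, limma adjusted p = 0.000974). Prdx3, the mitochondrial peroxiredoxin, rose from 96.0 ± 10.8 to 146.1 ± 19.5 CPM (0.60, limma adjusted p = 0.002). Msrb2, a methionine sulphoxide reductase of mitochondria, rose from 11.4 ± 1.07 to 14.8 ± 1.08 CPM (0.36, limma adjusted p = 0.0267). Txnrd3 and Prdx3 passed in all alternatives, and Msrb2 lost its call in 7 of 22, among these without FSH 1, 2, 3 or 4 or saline 1 or 4 (adjusted p up to 0.0805).

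NADPH supply, in which G6PDX stands first, was the list with the highest share called. Of 15 tested genes besides G6pdx, 5 rose and 1 fell (40.0%, median 0.16). Me1, the cytosolic malic enzyme, was measured at 934.2, 743.0, 824.8, 573.0 and 367.4 CPM in FSH livers 1, 2, 3, 4 and 6 and from 136.4 to 353.9 CPM with a median of 199.2 in saline livers. FSH 6 was the lowest FSH liver for Me1, as for G6pdx, but was still above every saline liver. The log2 difference was 1.62 (SE 0.24, limma adjusted p = 0.000755), the largest among the named genes, and it passed both thresholds in all 22 alternatives.

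The pentose phosphate pathway past G6PDX gave smaller differences. Pgd, the second NADPH-producing enzyme of the pathway, was 73.7 ± 15 CPM with FSH and 44.2 ± 10.3 CPM with saline (log2 difference 0.74, limma adjusted p = 0.0171). Rpia, an isomerase of the pathway, was 8.48 ± 2.59 against 4.58 ± 0.955 CPM (0.79, limma adjusted p = 0.0167), and Tkt, its transketolase, 220.4 ± 11.9 against 166.5 ± 26.5 CPM (0.42, limma adjusted p = 0.0247). Idh1, the cytosolic isocitrate dehydrogenase, rose as well (521.9 ± 83.1 against 371.6 ± 46.7 CPM, 0.48, limma adjusted p = 0.0203). H6pd, which makes NADPH inside the endoplasmic reticulum, fell from 312.4 ± 45.7 to 215.1 ± 49.1 CPM (-0.55, limma adjusted p = 0.0236). Each of these 5 calls was lost when 1 of FSH livers 1 to 4 was left out: Pgd without FSH 1 (adjusted p = 0.0557), Rpia without FSH 3 (0.0517), Idh1 without FSH 1, 2 or 3, and Tkt and H6pd without FSH 1, 3 or 4 (up to 0.0667).

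Among 34 detoxication and iron targets of NRF2, 8 rose and 0 fell (23.5%, median 0.19), Pir and Gstm6 among them. Cyp2a5, a cytochrome P450 that hydroxylates coumarin, was 1280 ± 316.7 CPM with FSH and 639.4 ± 164.9 CPM with saline (log2 difference 1.00, just short of the second threshold, limma adjusted p = 0.00496). Its groups overlapped, with FSH 2 at 759.0 CPM and saline livers up to 852.6 CPM. Gstm2 rose from 41.9 ± 10.3 to 81.1 ± 11.1 CPM (0.97, limma adjusted p = 0.00113) without overlap. Gstm1, Gstm3 and Gstm4, glutathione transferases of the same mu class, differed by 0.46, 0.84 and 0.38 on the log2 scale (limma adjusted p = 0.0358, 0.0193 and 0.0229), and Blvra, biliverdin reductase, by 0.40 (limma adjusted p = 0.0247). The groups overlapped in Gstm1, Gstm3 and Gstm4, and not in Blvra. The mu class genes resemble each other closely, so reads could have been split among them. Cyp2a5 and Gstm2 passed in all alternatives. The call was lost for Gstm3 without FSH 3 or 4, for Blvra without FSH 1, 3 or 4 or saline 2, for Gstm4 without FSH 1, 2 or 3, and for Gstm1 in 12 of 22 alternatives, among these no filter, median of ratios scaling, voom, edgeR, and leaving out FSH 1, 3, 4 or 6 or saline 2, 3, 4 or 6 (adjusted p up to 0.0843).

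Catalase has neighbours in the peroxisome that make hydrogen peroxide, and of 14 genes tested for superoxide and peroxisomal peroxide 3 rose and 1 fell (28.6%, median 0.13). Paox, an oxidase of acetylated polyamines, rose from 34.9 ± 4.43 to 65.1 ± 6.68 CPM (log2 difference 0.89, limma adjusted p = 7.17e-05). Uox, urate oxidase, rose from 1047 ± 116.8 to 1931 ± 267.0 CPM (0.88, limma adjusted p = 0.000171), and Ddo, the oxidase of D-aspartate, from 14.5 ± 1.79 to 22.1 ± 2.10 CPM (0.59, limma adjusted p = 0.0023). Acox2, the oxidase of branched acyl-CoA and bile acid intermediates, fell from 151.6 ± 10.6 to 92.6 ± 4.82 CPM (-0.71, limma adjusted p = 3.93e-05). All 4 passed in all 22 alternatives.

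**Figure D4:**
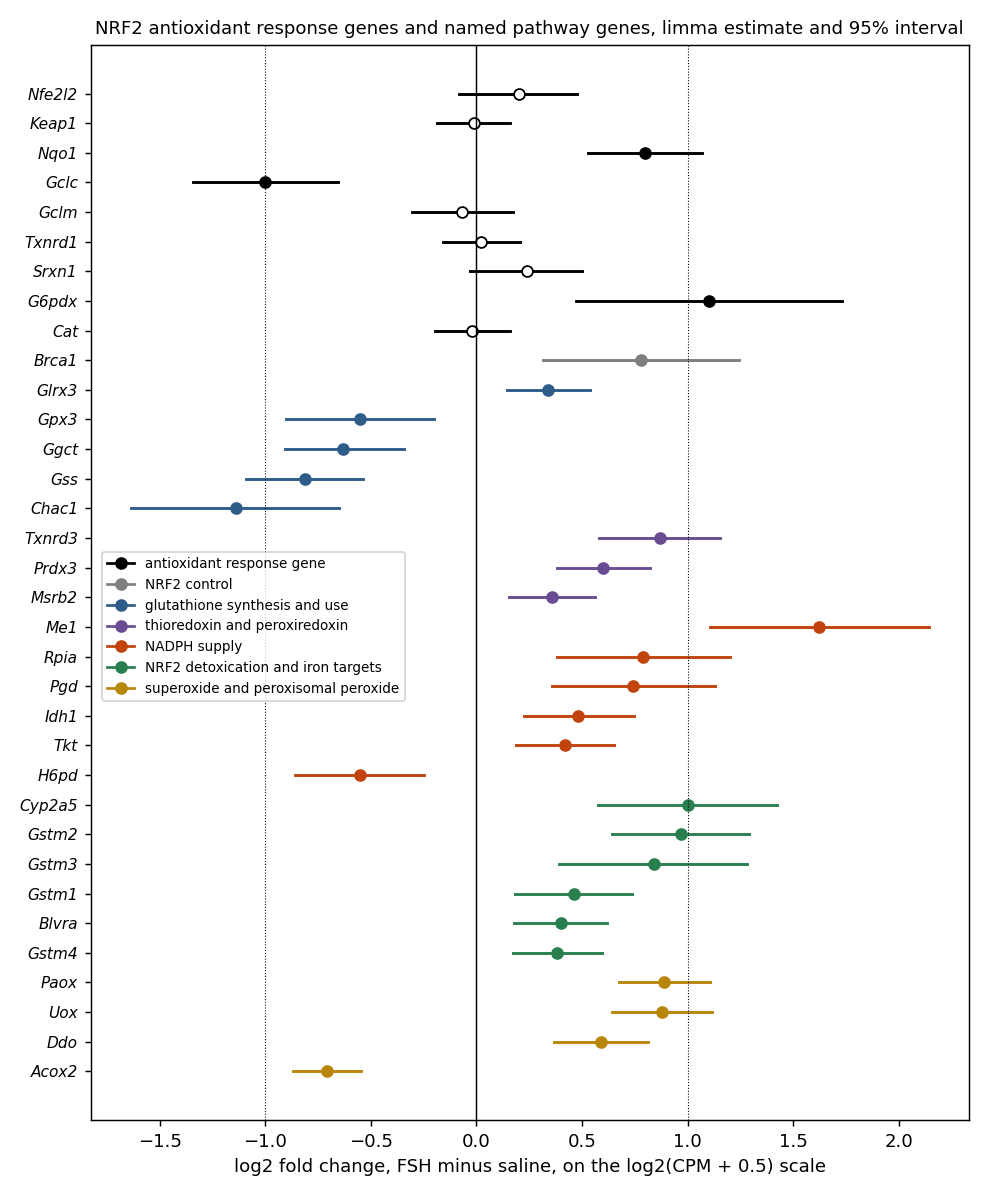
Log2 fold change, FSH minus saline, on the log2(CPM + 0.5) scale (x axis), with limma's 95% interval for 9 antioxidant response genes (black) and for 25 genes that the naming rule took from the 6 pathway lists for an adjusted p under 0.05 (coloured by list). Filled points passed an adjusted p of 0.05, open points did not, and dotted lines mark an absolute log2 fold change of 1, which Me1, G6pdx, Chac1 and, at -1.0, Gclc passed.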

How the data were processed

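The authors extracted total RNA from whole livers (papain digestion per the labels), prepared NEBNext Ultra libraries and read paired ends on an Illumina HiSeq. The submitters' processing notes name FastQC 0.11.2, Trim Galore 0.3.3, cutadapt, STAR, RSEM and the build mm10. The annotation and the use of strand are not given in the sources used here. The authors deposited CPM values, reads per gene over a library total of 1000000, without removing weakly expressed genes or normalizing libraries to each other. Dividing each library by its smallest step gave whole reads for 100% of values (tolerance 0.1 reads), with totals of 10801891 to 19909327 reads.

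Symbols and positions came from GENCODE M21 (GRCm38), which named 35555 of 36788 identifiers. The 12733 genes that averaged 0.5 CPM or more were taken to log2(CPM + 0.5) and fitted in limma 3.58.1 (R 4.3.3) by eBayes, with an intensity trend. P-values were adjusted by Benjamini-Hochberg. Such fold changes understate the change of low genes. Single values were tested with a two-sided exact permutation test. P-values measure the spread between these libraries, which the labels do not tie to named animals. No pair of libraries within a group came near sampling noise (lowest mean chi-square 11.4 per gene over 25 pairs). The intervals are limma's and rest on the same spread, and limits for a count of 0 cover counting error only, without molecular identifiers.

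Alternatives were other pseudocounts, filters and scalings, array weights, a replicate block, voom, edgeR 4.0.16 and DESeq2 1.42.0 on the recovered reads, and each library left out. The code was tested on simulated data. The genes, the lists and the tests were chosen with earlier results of these data known. The naming rule took all 10 genes and, from each list, those with an adjusted p under 0.05, or the 3 highest and 3 lowest log2 fold changes where more than 6 passed.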

Additional observations from a re-analysis of the deposited data

Results flagged for a closer look

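In 68 groups of values (a gene in the FSH or saline livers), 3 held a liver that stood apart from the others of its group by Dixon's criterion, where chance gives about 1 in 20. Srxn1 was 19.7 CPM in saline liver 4, below the 26.8 to 30.9 CPM of the other saline livers. Idh1 was 279.7 CPM in the same liver, against 368.6 to 403.6 CPM. Gpx3 was 5.30 CPM in FSH liver 4, above the 3.40 to 3.87 CPM of the other FSH livers. Without saline 4 the log2 difference of Srxn1 was 0.15 (limma adjusted p = 0.437).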

How the results depend on the processing

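Of the 9 genes tested, 2 passed both thresholds, against 1.83% of all genes. That number was 1 with a pseudocount of 1 CPM (Gclc just under the fold). It was also 1 with no filter on low genes (G6pdx lost, limma adjusted p = 0.0599) and 1 with the replicate block (Gclc at -0.89). Leaving out single libraries gave 0 to 2 (0 without FSH 1, saline 3 or saline 6). Over all genes, 1350 passed the adjusted p, and leaving out single libraries gave 803 (without FSH 1) to 1659 (without FSH 6). The replicate block gave 1210, and same-numbered livers did not all deviate together (correlations from -0.07 to 0.36, over 0.1 in 2 of 5 pairs, and 1 of 5 FSH livers was nearest to its own number), so the numbers were not taken to pair the mice. The block also ended the calls of Brca1 (adjusted p = 0.103), Gpx3 (0.0871), Glrx3 (0.0857) and Msrb2 (0.0671). Nqo1 and Gclc passed the adjusted p in all 22 alternatives, G6pdx in 15. In 4 genes that did not pass, the sign turned near 0. Txnrd1 was -0.0036 with median of ratios scaling, -0.0019 with quantile normalization, -0.0203 with array weights, -0.0224 with the block, -0.0051 with voom, -0.0064 with edgeR and -0.0059 with DESeq2. Cat was 0.0956 after quantile normalization and 0.0083 with the block, and Gclm was 0.0087 with the block. Leaving out single libraries gave -0.0534 to 0.0113 for Keap1, -0.117 to 0.0087 for Gclm, -0.0224 to 0.0599 for Txnrd1 and -0.0493 to 0.0083 for Cat. The cause of these shifts was not tested. Slc7a11 entered the fit with no filter on low genes and was not called there, and its few reads limit what that shows.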

Other observations

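The other 4 ratios between genes of the same liver, also chosen after the values had been seen and therefore given with no test, overlapped between the groups. The Gclc to Gss ratio was 3.52 ± 0.707 with FSH (SD, n = 5) and 4.01 ± 0.870 with saline (SD, n = 6), a log2 difference of -0.18. The Nfe2l2 to Keap1 ratio was 1.07 ± 0.205 against 0.915 ± 0.149 (0.21), and FSH liver 6, with 0.717, was the lowest FSH liver. The G6pdx to Pgd ratio was 0.198 ± 0.0741 against 0.146 ± 0.0443 (0.41), and Txnrd1 to Srxn1 was 2.89 ± 0.521 against 3.35 ± 0.536 (-0.22).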
